A study of Arabidopsis thaliana with 12 samples.

Results

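EXPA7 (AT1G12560), EXPA18 (AT1G62980), EXPA4 (AT2G39700) and EXPB3 (AT4G28250) are 4 expansin genes of Arabidopsis thaliana, and their transcript levels were followed in root tips of a mutant and its wild type with and without the auxin precursor indole-3-butyric acid (IBA). They were taken as the genes of these names for which a probe set of the ATH1 array names exactly 1 gene. Each had 1 such probe set, so they are 4 of 13355 genes named in this way and 4 of 22746 probe sets tested. The arrays measured root tip segments of about 4 mm, from seedlings 3 days after germination that spent the last 6 h on fresh medium. The 4 groups were ibr1ibr3ibr10 on 10 µM IBA, ibr1ibr3ibr10 on DMSO, Col-0 on 10 µM IBA and Col-0 on DMSO, with 3 arrays each. The triple mutant is in the Col-0 background, and both media were half-strength Murashige and Skoog medium, with the solvent DMSO as the control. The labels state independent biological replicates and a minimum of 120 root tips sampled for a treatment, so a level is an average over all cell types of the segment.

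Expansins are secreted proteins that loosen the plant cell wall at acid pH without cutting its polymers, and they let a cell enlarge under turgor. The alpha-expansins (EXPA) and the beta-expansins (EXPB) are the families with known wall-loosening activity, and EXLA and EXLB are the expansin-like relatives. EXPA7 and EXPA18 are known for their expression in the hair-forming cells of the root epidermis, where they accompany the bulge and tip growth of the root hair. EXPA4 is an alpha-expansin and EXPB3 a beta-expansin, and neither is known as a root hair gene. IBA is shortened in peroxisomes into the active auxin, indole-3-acetic acid, by a set of enzymes that includes the products of IBR1, IBR3 and IBR10. Auxin made from IBA is known to promote root hair elongation in Arabidopsis seedlings.

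Levels are log2 values of the deposited table, so a difference of 1 is a 2-fold change, and levels of different genes are not compared because each probe set has its own brightness. All 4 genes lay well above 3.24, the 30th percentile of probe set means, below which a level is called dim here. A listed gene is called measured here if a probe set names exactly that 1 gene. Of the tested probe sets 8730 name no gene and 503 name several, so a gene not counted as measured may still be on the array. Of the markers of the tissue only a few have a named probe set. The 3 measured genes of the stem cell niche and meristem, BBM, JKD and AGL42, were above the dim level, and the hair cell list held only EXPA7 and EXPA18 themselves (2 of 9), so the amount of hair cells was not measured independently. Of the green shoot list 2 of 23 were measured: RCA, which encodes Rubisco activase, rose on IBA by 0.63 (SE 0.11) in ibr1ibr3ibr10 and by 1.08 (SE 0.11) in Col-0, and PSAE-1, a photosystem I subunit gene, by 0.36 (SE 0.10) in ibr1ibr3ibr10, with 0.26 (SE 0.10, not passing) in Col-0. The part of these markers in the expansin results was not tested. In such bulk tissue, fewer cells of a type and less RNA per cell cannot be told apart. The bacterial transcripts spiked into the RNA averaged 4.78 to 4.94 in ibr1ibr3ibr10 on IBA, 4.81 to 5.02 in ibr1ibr3ibr10 on DMSO, 4.96 to 5.51 in Col-0 on IBA and 4.76 to 4.91 in Col-0 on DMSO. Scaling to them subtracts 0.44 from every IBA change in Col-0 and adds 0.40 to every genotype difference on IBA. Calls of the 4 expansins that depend on this scaling are given with both values. For other genes such values are given in part, and for RCA and PSAE-1 not at all.

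Of the 4, EXPA18 had the largest difference between the genotypes on IBA and on DMSO. Its level was 7.53, 7.57 and 7.63 in ibr1ibr3ibr10 on IBA, 8.24, 8.08 and 8.21 in ibr1ibr3ibr10 on DMSO, 8.88, 8.78 and 9.01 in Col-0 on IBA and 8.69, 8.47 and 8.76 in Col-0 on DMSO. No array of 1 group overlapped those of any other group, and the order of the groups was Col-0 on IBA, Col-0 on DMSO, the mutant on DMSO and the mutant on IBA. EXPA7, its partner in hair cells, moved within a much narrower range. It was at 7.98, 8.05 and 7.93 in ibr1ibr3ibr10 on IBA, 8.30, 8.19 and 8.25 in ibr1ibr3ibr10 on DMSO, 8.18, 8.29 and 8.31 in Col-0 on IBA and 8.47, 8.41 and 8.33 in Col-0 on DMSO. The mutant on IBA was again lowest on every array, Col-0 on DMSO was highest, and the mutant on DMSO overlapped Col-0 on IBA.

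EXPA4 was high in Col-0 on IBA and low in the mutant on IBA. It was at 6.53, 6.55 and 6.57 in ibr1ibr3ibr10 on IBA, 7.00, 7.08 and 6.78 in ibr1ibr3ibr10 on DMSO, 7.18, 7.34 and 7.56 in Col-0 on IBA and 6.64, 6.59 and 6.78 in Col-0 on DMSO. The mutant on IBA lay below and Col-0 on IBA above all other arrays, while the DMSO groups overlapped. EXPB3 had the same order of group means with more spread. It was at 5.23, 5.56 and 5.45 in ibr1ibr3ibr10 on IBA, 5.87, 5.80 and 5.50 in ibr1ibr3ibr10 on DMSO, 5.69, 5.84 and 6.02 in Col-0 on IBA and 5.57, 5.45 and 5.68 in Col-0 on DMSO. Each group of EXPB3 overlapped its neighbour in that order, although the mutant on IBA and Col-0 on IBA did not overlap.

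**Figure D1:**
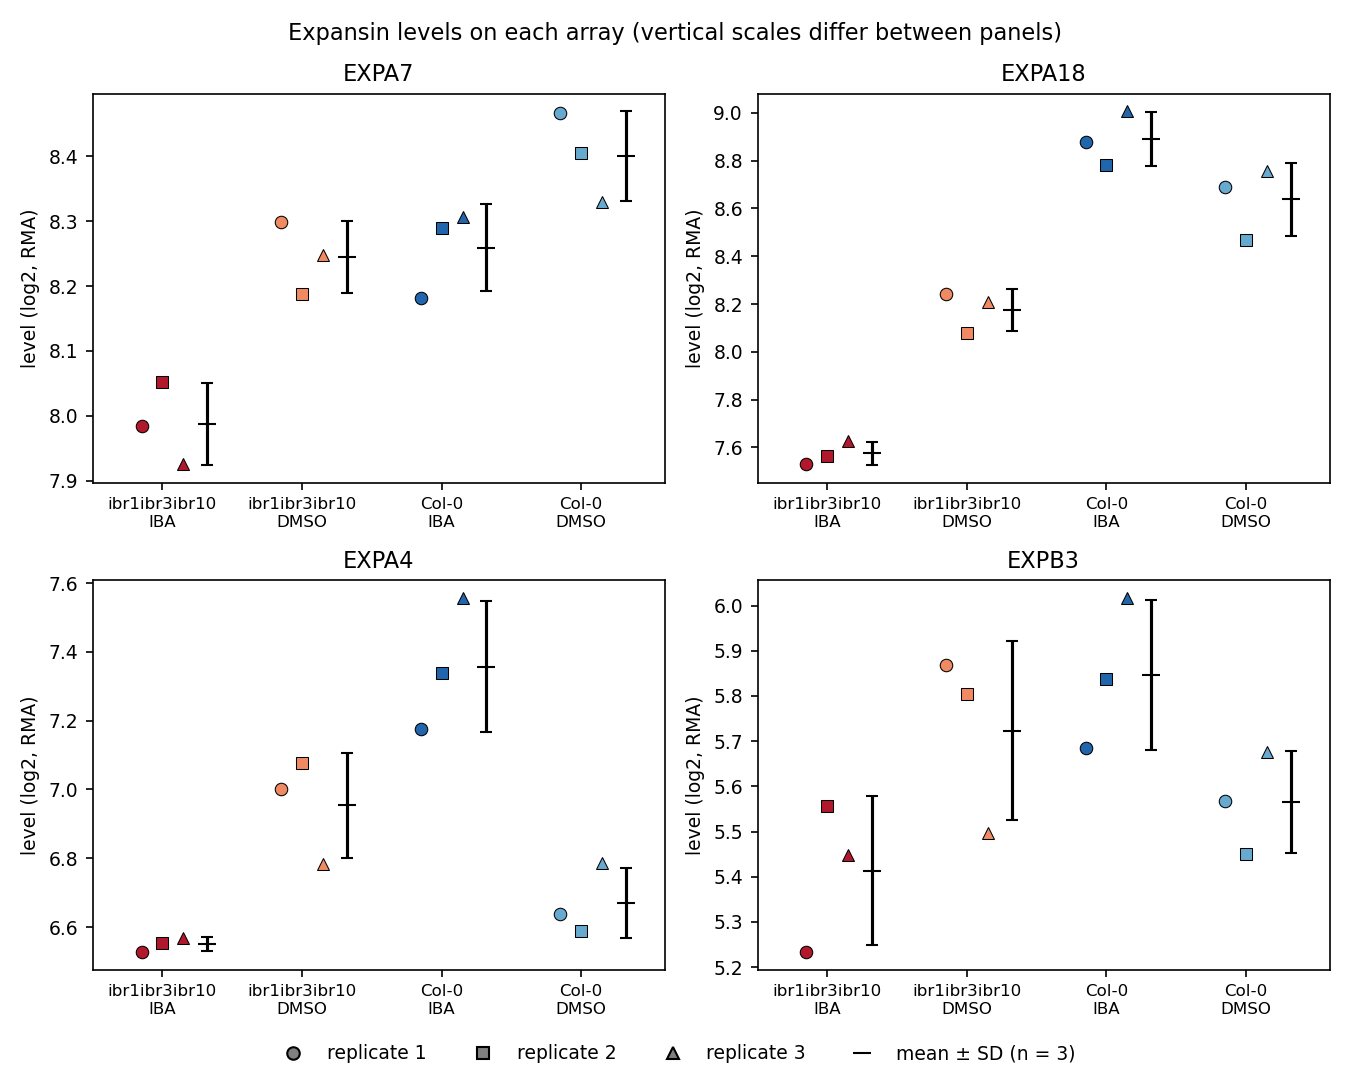
Level of each expansin (vertical axis, log2 of the deposited RMA values) on each of the 12 arrays by group (horizontal axis); symbols give the replicate, and the bars beside them the mean and SD of 3 arrays. In all 4 panels the mean of ibr1ibr3ibr10 on IBA is lowest, from 5.41 for EXPB3 to 7.99 for EXPA7, and EXPA18 averages 7.58, 8.18, 8.89 and 8.64 from left to right.

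On IBA the mutant had less transcript of all 4 expansins than Col-0. EXPA18 was at 7.58 ± 0.05 in ibr1ibr3ibr10 and 8.89 ± 0.11 in Col-0 (SD, n = 3 each), a difference of -1.31 (SE 0.09, 95% interval -1.51 to -1.12, limma adjusted p = 2.23e-07), which leaves 0.402 of the Col-0 level. EXPA4 was at 6.55 ± 0.02 in ibr1ibr3ibr10 and 7.36 ± 0.19 in Col-0, a difference of -0.81 (SE 0.10, adjusted p = 9.37e-05). EXPB3 differed by -0.43 (SE 0.12, adjusted p = 0.0294) and EXPA7 by -0.27 (SE 0.07, adjusted p = 0.0249). The 4 of 4 compare with 11.0% of all tested probe sets called in either direction and 5.08% called lower, and all 4 had groups that did not overlap, against 24.2% of all. The 4 genes were chosen with earlier results of these data known, so this and later counts and medians of the 4 are descriptions. EXPA18 and EXPA4 were lower under each of the 21 alternatives tried, with adjusted p up to 5.54e-05 and 0.0453. The calls of EXPB3 and EXPA7 did not hold for every array left out: each was lost on leaving out ibr1ibr3ibr10 IBA replicate 1 or 3 or Col-0 IBA replicate 2 or 3, EXPB3 with adjusted p up to 0.136 and EXPA7 up to 0.10. Scaling to the spiked transcripts leaves EXPB3 at -0.029 and turns EXPA7 to 0.13, neither of which passes.

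On DMSO, without added IBA, the root hair expansin EXPA18 was already lower in the mutant. It was at 8.18 ± 0.09 in ibr1ibr3ibr10 and 8.64 ± 0.15 in Col-0 (SD, n = 3 each), a difference of -0.46 (SE 0.09, 95% interval -0.66 to -0.27, adjusted p = 0.0131), or 0.726 of the Col-0 level. It was the only 1 of the 4 to pass, where 2.42% of all tested probe sets were called and 0.602% were called lower. EXPA7 was at -0.16 (SE 0.07, adjusted p = 0.359), and its groups did not overlap, as for 21.9% of all. EXPA4 was at 0.28 (SE 0.10, adjusted p = 0.212) and EXPB3 at 0.16 (SE 0.12, adjusted p = 0.627), and for both the arrays of the genotypes overlapped. The EXPA18 difference did not pass when ibr1ibr3ibr10 DMSO replicate 2 (-0.41, adjusted p = 0.0683), Col-0 DMSO replicate 1 (-0.44, 0.0505) or Col-0 DMSO replicate 3 (-0.40, 0.0727) was left out. With spike scaling the difference was -0.60, with a larger error (adjusted p = 0.0942). As deposited, the shoot marker RCA was higher in the mutant in the same comparison, at 5.74 ± 0.05 in ibr1ibr3ibr10 and 5.12 ± 0.18 in Col-0 (0.63, SE 0.11, adjusted p = 0.00557). Spike scaling subtracts 0.13 from every difference on DMSO, and whether RCA then passes is not given. The part of RCA in the EXPA18 result was not tested.

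Within the mutant, IBA lowered EXPA18, EXPA4 and EXPA7. EXPA18 was at 7.58 ± 0.05 on IBA and 8.18 ± 0.09 on DMSO, a change of -0.60 (SE 0.09, 95% interval -0.79 to -0.41, adjusted p = 0.000793). EXPA4 was at 6.55 ± 0.02 on IBA and 6.95 ± 0.15 on DMSO, a change of -0.40 (SE 0.10, adjusted p = 0.0238), and EXPA7 at 7.99 ± 0.06 on IBA and 8.24 ± 0.06 on DMSO, a change of -0.26 (SE 0.07, adjusted p = 0.0389). EXPB3 was at -0.31 (SE 0.12, adjusted p = 0.127), and its mutant arrays on IBA overlapped those on DMSO. The 3 of 4 called lower compare with 9.36% of all probe sets called and 3.87% called lower, and these 3 genes had groups that did not overlap, against 31.1% of all. The EXPA18 call held on leaving out each of the 12 arrays in turn (adjusted p up to 0.00525). The EXPA4 call was lost on leaving out any mutant array but DMSO replicate 3 (adjusted p up to 0.117), and the EXPA7 call on leaving out any mutant array but IBA replicate 2, or Col-0 DMSO replicate 2 (up to 0.143). With spike scaling all 4 changes stayed negative, from -0.50 for EXPA18 to -0.16 for EXPA7, but none passed.

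In Col-0, EXPA4 was the 1 of these 4 expansins that was called higher on IBA. It was at 7.36 ± 0.19 on IBA and 6.67 ± 0.10 on DMSO, a change of 0.69 (SE 0.10, 95% interval 0.47 to 0.91, adjusted p = 0.00021), or 1.61-fold. It was the only 1 of the 4 to pass, where 23.5% of all tested probe sets were called and 12.1% were called higher. EXPB3 was at 0.28 (SE 0.12, adjusted p = 0.108) and EXPA18 at 0.25 (SE 0.09, adjusted p = 0.0583), and EXPA7 at -0.14 (SE 0.07, adjusted p = 0.185). All 4 genes had Col-0 groups that did not overlap, as did 36.6% of all probe sets. The side of the threshold on which EXPA18 falls depends on the setting: leaving out Col-0 IBA replicate 2 (0.31, adjusted p = 0.0434) or Col-0 DMSO replicate 3 (0.31, 0.0423) brought it under 0.05. Spike scaling left EXPA4 at 0.24 (adjusted p = 0.192), turned EXPB3 to -0.16 and EXPA18 to -0.19, and took EXPA7 to -0.58 (adjusted p = 0.0031).

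**Figure D2:**
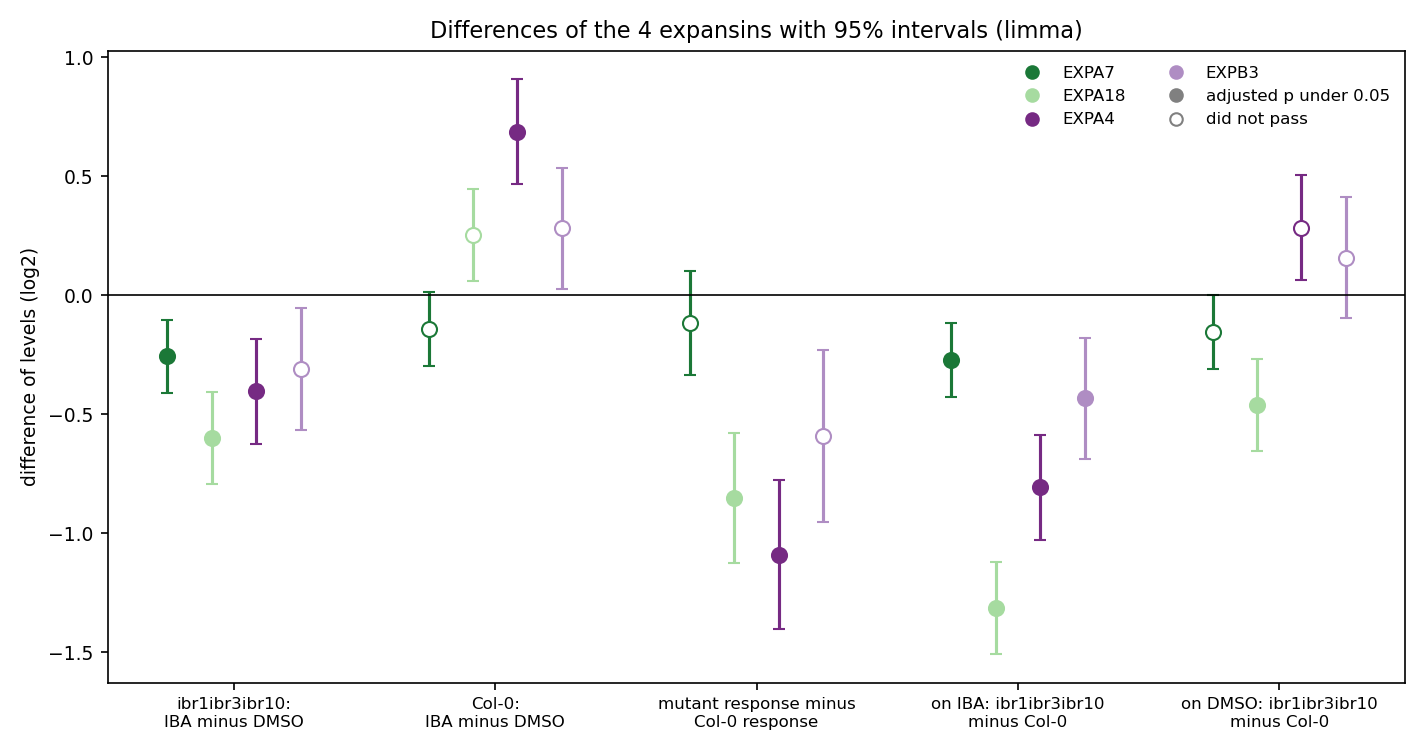
Difference of levels (vertical axis, log2) of each expansin in the 5 comparisons (horizontal axis), with 95% intervals from the limma fit; filled points passed an adjusted p under 0.05. All 4 genes are negative within the mutant and between the genotypes on IBA, from -0.26 to -0.60 and from -0.27 to -1.31; scaling to the spiked transcripts turns EXPA7 positive between the genotypes on IBA (0.13).

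The responses of the genotypes to IBA were compared directly, as the mutant change minus the Col-0 change. EXPA4 had a difference of -1.09 (SE 0.14, adjusted p = 0.000325) and EXPA18 one of -0.85 (SE 0.13, 95% interval -1.12 to -0.58, adjusted p = 0.000855). EXPB3 was at -0.59 (SE 0.17, 95% interval -0.95 to -0.23, adjusted p = 0.0526), just outside the threshold. EXPA7 was at -0.12 (SE 0.10, 95% interval -0.34 to 0.10, adjusted p = 0.614), so no difference in its response was detected, and a difference of the size seen in EXPA18 lies outside its interval. The 2 of 4 called lower compare with 6.50% of all probe sets called and 3.54% called lower. For EXPA4 and EXPA18 the calls held on leaving out each array in turn (adjusted p up to 0.00155 and 0.00346). With spike scaling they did not pass, at -0.55 (adjusted p = 0.0547) and -0.31 (0.239), and EXPA7 turned to 0.42 (0.108).

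The root hair expansins were then set against EXPA4 and EXPB3 within each array, which cancels any constant added to an array, as in spike scaling or median centring, but not a quantile normalization. Each value is a within-array difference of log2 levels, with the mean of Col-0 on DMSO set to 0, and is a description with no test. The mean of EXPA7 and EXPA18 minus the mean of EXPA4 and EXPB3 was -0.60 ± 0.07 in ibr1ibr3ibr10 on IBA, -0.53 ± 0.20 in ibr1ibr3ibr10 on DMSO, -0.43 ± 0.12 in Col-0 on IBA and 0.00 ± 0.08 in Col-0 on DMSO (SD, n = 3 each). Relative to the other pair, the root hair pair was thus lower in each of these groups than in Col-0 on DMSO, with no overlap of arrays. The Col-0 change of the pair difference was -0.43, or -0.36 after quantile normalization. Which pair moved in Col-0 depends on the scaling: EXPA4 and EXPB3 averaged 0.48 and the root hair pair 0.05 as deposited, against 0.04 and -0.39 with spike scaling. In the mutant on DMSO the root hair pair was at -0.31 and the other pair at 0.22. On IBA the mutant's pairs moved by similar amounts, -0.43 for the root hair pair and -0.36 for the other pair, so that the gap between them overlapped that on DMSO.

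The root hair expansins also differed from each other. EXPA18 minus EXPA7 was -0.69, -0.72 and -0.53 in ibr1ibr3ibr10 on IBA, -0.30, -0.35 and -0.28 in ibr1ibr3ibr10 on DMSO, 0.46, 0.25 and 0.46 in Col-0 on IBA and -0.01, -0.18 and 0.19 in Col-0 on DMSO. No group overlapped another, and the difference was 1.04 lower in the mutant than in Col-0 on IBA. EXPA4 minus EXPB3 was more even: 0.19, -0.11 and 0.01 in ibr1ibr3ibr10 on IBA, 0.03, 0.17 and 0.18 in ibr1ibr3ibr10 on DMSO, 0.38, 0.40 and 0.43 in Col-0 on IBA and -0.04, 0.03 and 0.00 in Col-0 on DMSO. Here Col-0 on IBA alone stood above every other group, and the mutant groups overlapped.

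**Figure D3:**
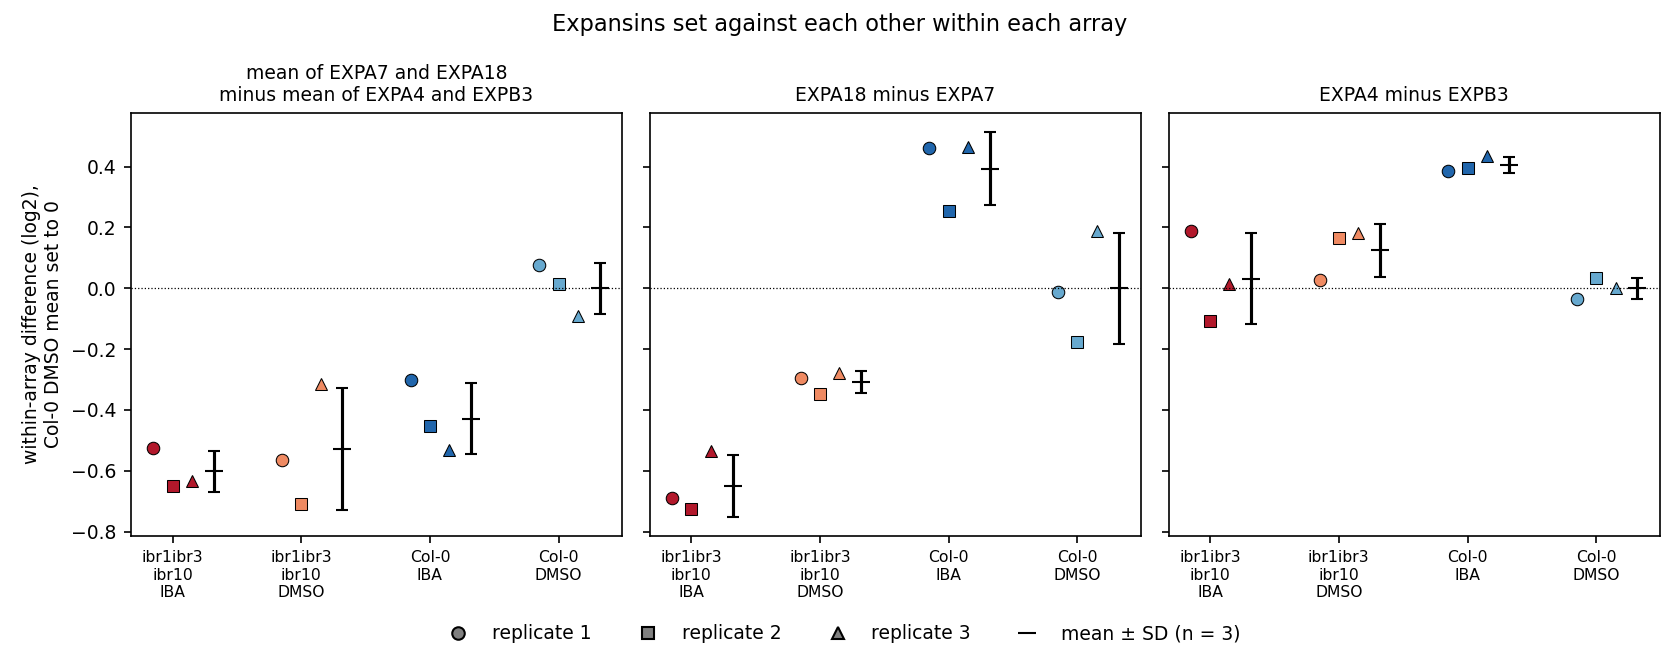
Within-array differences of log2 levels (vertical axis, with the mean of Col-0 on DMSO set to 0) by group (horizontal axis): the root hair pair minus the other pair, EXPA18 minus EXPA7, and EXPA4 minus EXPB3. Symbols are arrays and bars the mean and SD of 3; EXPA18 minus EXPA7 averages -0.65 in ibr1ibr3ibr10 on IBA and 0.39 in Col-0 on IBA.

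Over the 12 arrays, which fall into the 4 groups, the profiles of the expansins were set against each other and against 8846 genes with a named probe set above the dim level. These correlations are descriptions. EXPA4 and EXPB3 were most alike (Pearson r = 0.88), and EXPA4 ranked 2 in likeness to EXPB3 and EXPB3 ranked 12 in likeness to EXPA4. EXPA18 and EXPA7 came next (r = 0.78), but about 200 other genes were more like each of them, with EXPA7 at rank 210 for EXPA18 and EXPA18 at rank 200 for EXPA7. EXPA18 with EXPA4 had r = 0.68, and EXPA7 with EXPA4 r = 0.30.

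The genes most like each expansin differed accordingly. Those most like EXPA18 were AT5G04960 (r = 0.98), AT5G36270, AT1G59850, AT5G19800, whose RefSeq synonym is hydroxyproline-rich glycoprotein 2, and PLIM2b, which encodes a LIM domain protein of the actin-bundling family (r = 0.98 for each). As their choice over the same arrays fixes in part, their differences on IBA were -1.18 to -0.55 in ibr1ibr3ibr10 and 0.09 to 0.59 in Col-0, where the 0.44 that spike scaling subtracts turns the smaller ones negative. Those most like EXPA7 were AT1G66800, AT1G26970, AT5G43230, AT3G56500 and AT2G03980, with r between 0.92 and 0.94, and their differences on IBA, given with no test, were -1.17 to -0.38 in ibr1ibr3ibr10 and -0.80 to -0.14 in Col-0. Those most like EXPA4 were AT5G04980, AT1G64405, AT1G68400, CLE44 (a gene for a small signalling peptide) and LBD16 (a regulator of transcription known from lateral root initiation), with r between 0.90 and 0.92. AT1G64405 and CLE44 were above the dim level only in Col-0 on IBA (5.36 and 4.12). They entered the comparison through that group, where EXPA4 is also highest, so their likeness is fixed in part by the choice. LBD16 was at 3.36 ± 0.03 in ibr1ibr3ibr10 on IBA and 5.69 ± 0.25 in Col-0 on IBA. Next to EXPA4, those most like EXPB3 were AT1G20030, AT5G03660, AT4G16146 and AT5G20580, with r between 0.83 and 0.90.

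Beside these 4, 14 of 32 other listed expansins and expansin-like genes were measured, 6 of them dim. None of the 14 had the profile of EXPA4, higher on IBA in Col-0 and lower on IBA in the mutant with a called difference. For EXPA8, EXPB1 and EXLA2 the difference of responses was called in the other direction. EXPA8 was at 5.27 ± 0.05 on IBA and 5.26 ± 0.07 on DMSO in ibr1ibr3ibr10, and at 3.93 ± 0.18 on IBA and 5.33 ± 0.07 on DMSO in Col-0 (SD, n = 3 each), a difference of responses of 1.41 (SE 0.13, adjusted p = 1.05e-05). EXPB1 fell by 1.71 (SE 0.14) in Col-0, and was at -0.30 (SE 0.14) in the mutant, and its responses differed (adjusted p = 0.000554). EXLA2 fell in both genotypes, by 0.77 (SE 0.08) in ibr1ibr3ibr10 and by 1.38 (SE 0.08) in Col-0, a difference of responses of 0.61 (SE 0.11, adjusted p = 0.00495). EXLB1 rose by 1.19 (SE 0.12) in ibr1ibr3ibr10 and by 0.80 (SE 0.12) in Col-0, where spike scaling leaves 0.36 (adjusted p = 0.062). EXPA9 and EXPA15 changed by 0.31 and 0.38 in the mutant and by 0.35 and 0.36 in Col-0, calls that end with spike scaling, which turns the Col-0 changes to -0.09 and -0.08. EXLA1 fell in the mutant, by 0.60 (SE 0.14), with an adjusted p of 0.0696 after spike scaling.

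Counted over the 14 genes, 3 rose and 2 fell on IBA in the mutant, where 5.49% of all tested probe sets rose and 3.87% fell. In Col-0 3 rose and 3 fell, where 12.1% of all rose and 11.4% fell. The difference of responses was higher in 3 and lower in 0, against 2.95% of all called higher and 3.54% lower. On DMSO 0 were higher in the mutant, against 1.82% of all, and 1 was lower, EXLA2 (-0.51, adjusted p = 0.00326), against 0.602%. The median difference of responses was 0.07 for these 14 genes, -0.72 for the 4 expansins and 0.01 for all tested probe sets. On IBA the mutant was lower than Col-0 in EXLA1 (-0.70, adjusted p = 0.0044) and EXPA20 (-0.56, adjusted p = 0.00119), 2 of 14 against 5.08% of all. These calls end with spike scaling. The mutant was higher in EXPA8, EXPB1 and EXLB1, 3 of 14 against 5.95% of all. A median over the 14 includes the dim genes, of which none was called in any comparison.

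**Figure D4:**
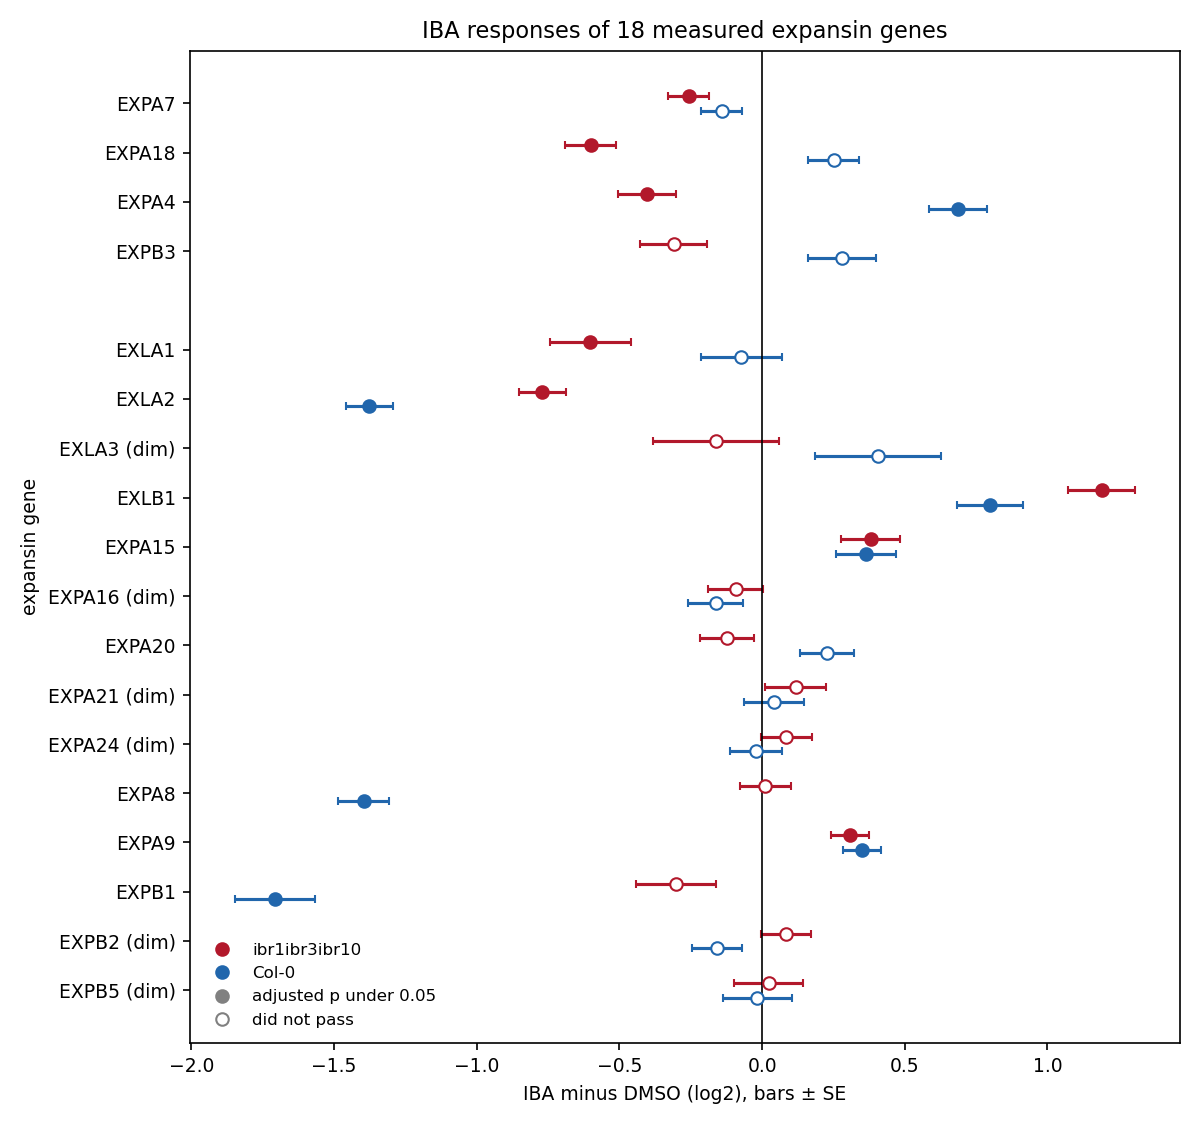
Change on IBA (horizontal axis, IBA minus DMSO, log2, bars ± SE) of the 18 measured expansin and expansin-like genes (vertical axis) in ibr1ibr3ibr10 and in Col-0; filled points passed an adjusted p under 0.05. EXPA4 and EXPA18 lie on opposite sides of 0 in the genotypes (-0.40 and -0.60 in ibr1ibr3ibr10, 0.69 and 0.25 in Col-0, where spike scaling turns EXPA18 to -0.19), and EXPB1 is at -0.30 in ibr1ibr3ibr10 and -1.71 in Col-0.

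Other genes of root hair growth and of the cell wall were taken from lists. Of 86 listed genes of root hair growth 4 were measured, and the mutant on IBA was lower than Col-0 in 1 and higher in 0, where 5.08% of all tested probe sets were lower and 5.95% higher. That gene was LPR1, a multicopper oxidase gene of the phosphate response, at -0.40 (SE 0.11, adjusted p = 0.0356), or 0.01 with spike scaling. FER, a receptor kinase gene, was at -0.01 (SE 0.08) and CSLD2, a cellulose synthase-like gene of tip growth, at -0.15 (SE 0.07), and neither passed. The median of the 4 genes was -0.15, against -0.62 for the 4 expansins and 0.00 for all tested probe sets. TRY, a MYB-type repressor of epidermal patterning and the 1 measured gene of 19 on that list, was at 0.09 (SE 0.15).

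Xyloglucan endotransglucosylase/hydrolases, which cut and rejoin the xyloglucan that tethers cellulose, had 10 of 33 genes measured. In the mutant 0 rose and 4 fell on IBA, where 5.49% of all tested probe sets rose and 3.87% fell. In Col-0 3 rose and 2 fell, where 12.1% of all rose and 11.4% fell; 1 of the 3, EXGT-A3 (0.38), turns to -0.06 with spike scaling. XTH26 and XTH33 were called higher on IBA in Col-0 and lower on IBA in the mutant, as EXPA4 was. Unlike EXPA4, XTH26 was above the dim level only in Col-0 on IBA (6.10). It averaged 2.46 and 2.80 in the mutant on IBA and on DMSO, and 3.06 in Col-0 on DMSO. Its fall in the mutant is thus a change between 2 dim levels. XTH26 was at -0.34 (SE 0.10, adjusted p = 0.0402) in ibr1ibr3ibr10 and 3.04 (SE 0.10) in Col-0, with a difference of responses of -3.38 (SE 0.14, adjusted p = 1.1e-08). XTH16 had the other direction, with a difference of responses of 2.03 (SE 0.27, adjusted p = 0.000315) and a fall of 2.38 (SE 0.19) in Col-0. XTH33 was at -0.59 (SE 0.13) in ibr1ibr3ibr10, 0.82 (SE 0.13) in Col-0 and a difference of responses of -1.41 (SE 0.19, adjusted p = 0.000337). On IBA the mutant was lower than Col-0 in 4 of the 10, against 5.08% of all, among them XTH26 (-3.64, SE 0.10), XTH19 (-0.79, SE 0.09) and XTH32 (-0.71, SE 0.10), and higher in 1, XTH16 (1.59, SE 0.19), against 5.95% of all. With spike scaling XTH26 and XTH33 still passed in the difference of responses (-2.84 and -0.87) and none of the 4 falls in the mutant passed, while XTH32 did not pass between the genotypes on IBA (-0.31, 0.106).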

How the data were processed

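Expression was measured on 12 Affymetrix ATH1 arrays. The deposited values are on a log2 scale and were made by the authors with RMA (affy 1.40.0), as the submitters' processing notes record. RMA corrects background, brings the arrays to 1 distribution and summarises probe sets, so a change is relative to the bulk of transcripts. From each sample 100 ng of RNA, with bacterial spike transcripts added, had been amplified and biotin-labelled, per the labels. Sample titles give 0 h for DMSO and ibr3 for the mutant, where the other labels give 6 h and the triple mutant, which were used. The source label of Col-0 on IBA alone also names DMSO in the earlier medium. Arrays have no read depth; precision is limited by the 3 of each group.

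Of 22810 probe sets, 64 controls were left out. RefSeq gave gene names only. Group means were fitted with limma 3.58.1 in R 4.3.3 (eBayes, 8 residual and 5.62 prior degrees of freedom), and two-sided p-values were adjusted over 22746 probe sets within each comparison (Benjamini-Hochberg, threshold 0.05). The steps were tested on simulated data. The 3.24 used as the dim level is a rank and no measured background.

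The expansins, gene lists and alternatives were chosen with earlier results of these data known. By rule all 4 expansins, measured relatives, the called list genes with the smallest p and the 5 genes most like each expansin could be named; FER, CSLD2 and TRY were named after their values were seen. The lists of wall glycoproteins and of root cap, dividing, non-hair, endodermis, xylem and phloem markers had 0 genes matched to a probe set that names exactly 1 gene. This is a limit of the names, and such genes may be on the array. DER1 was left out, since the annotation gives that symbol to another gene. Alternatives were a block on replicate number, 3 other scalings (array medians, quantiles, 24 spike probe sets), leaving out the dimmest 30%, fits on the compared groups, other eBayes settings, 1 probe set per gene, a threshold of 0.01 and omission of each array. Promoter motifs were not analysed here.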

Additional observations from a re-analysis of the deposited data

Results flagged for a closer look

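The responses to IBA differed between the genotypes for 2 of the 4 expansins, by the test of the difference itself. Of all tested probe sets 6.50% were called in that test and 3.54% were called lower. EXPA4 had a mutant response minus Col-0 response of -1.09 (limma adjusted p = 0.000325): all 3 mutant arrays on IBA lay below, and all 3 Col-0 arrays on IBA above, the arrays of the same genotype on DMSO. EXPA18 had a difference of -0.85 (adjusted p = 0.000855), of which the change in the mutant makes up -0.60 and the change in Col-0 0.25. The part of the spiked transcripts, which were highest in Col-0 on IBA, was not tested. Scaled to them, the differences were -0.55 (limma adjusted p = 0.0547) and -0.31 (0.239), and neither passed. The within-array difference between EXPA18 and EXPA7, which a constant added to an array does not move, was -0.65 ± 0.10 in ibr1ibr3ibr10 on IBA and 0.39 ± 0.12 in Col-0 on IBA (SD, n = 3 each).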

How the results depend on the processing

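Of 404 values of the 4 expansins under the alternatives, 354 kept their direction and side of the threshold and 4 turned round, all 4 with spike scaling; where a call changed, the cause was not tested. Spike scaling took the mutant response of EXPA4, EXPA7 and EXPA18 to -0.31, -0.16 and -0.50, the Col-0 response of EXPA4, EXPA7, EXPA18 and EXPB3 to 0.24, -0.58, -0.19 and -0.16, and the difference of responses of EXPA4, EXPA7 and EXPA18 to -0.55, 0.42 and -0.31. It took the genotype difference on IBA to 0.13 for EXPA7 and -0.029 for EXPB3, and on DMSO to -0.60 for EXPA18. It left 0 of the 4 called in the mutant response, against 4.16% of all tested probe sets, and 0 in the difference of responses, against 52.2%. It left 2 called between the genotypes on IBA, against 58.8%, and 0 on DMSO, against 0.91%. It moved the median of all probe sets to -0.48 in Col-0, 0.55 in the difference of responses and 0.40 between the genotypes on IBA, where 4.25%, 98.0% and 97.4% of calls were higher, against 51.6%, 45.5% and 53.9% as deposited; median centring gave 34.7% in Col-0. In Col-0, 2 of 4 were called with median centring (EXPA7, -0.21), against 29.3% of all. Through EXPA18, 2 of 4 were also called with quantile normalization (0.28), without the dimmest 30% or with trended and robust eBayes (0.25 each). The shares of all were 24.8%, 35.5% and 26.3%. The last 2 settings also called EXPB3 in the difference of responses (-0.59). Fits on the compared groups ended the EXPA7 calls in the mutant (-0.26) and between the genotypes on IBA (-0.27). At 0.01, 1, 2 and 0 of 4 were called in the mutant response and between the genotypes on IBA and on DMSO. The shares of all tested probe sets were 4.39%, 6.75% and 1.11%.

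Same-numbered deviations correlated at -0.21 to 0.17 over the group pairs compared, so replicate numbers gave no strong pairing. Between the genotypes on DMSO they correlated at 0.05 to 0.11, against -0.08 to 0.03 for arrays of unlike number. On IBA the values were 0.02 to 0.17, against -0.13 to 0.07. A weak pairing by number within a medium is therefore not excluded. With the replicate number as a block within each medium, the genotype differences of the 4 expansins kept their direction and side of the threshold. On IBA EXPB3 had a limma adjusted p of 0.0342 and EXPA7 0.0473, and on DMSO EXPA18 had 0.0118. With the replicate number as a block over both media, EXPA7 in the mutant was at -0.26 (adjusted p = 0.0561) and EXPA18 in Col-0 at 0.25 (0.0294). This made 2 of 4 called in Col-0, against 23.2% of all tested probe sets.

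Leaving out each array in turn gave -0.49 to -0.34 for EXPA4 and -0.29 to -0.23 for EXPA7 in the mutant, 0.17 to 0.31 for EXPA18 in Col-0, -0.70 to -0.50 for the EXPB3 difference of responses, -0.31 to -0.24 for EXPA7 and -0.51 to -0.34 for EXPB3 between the genotypes on IBA, and -0.55 to -0.40 for EXPA18 on DMSO. The number called of the 4 was 1 to 3 in the mutant, 1 to 2 in Col-0, 2 to 4 between the genotypes on IBA and 0 to 1 on DMSO. Of all tested probe sets 5.13% to 10.8% were called in the mutant and 18.4% to 23.1% in Col-0. Between the genotypes the shares were 8.19% to 11.8% on IBA and 1.22% to 3.02% on DMSO.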

Other observations

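Other wall genes were represented by few named probe sets. Of 43 listed genes of cellulose and wall polymer synthesis 7 were measured, of which 0 passed on IBA in the mutant, against 9.36% of all tested probe sets, and 1 rose in Col-0, against 12.1% of all. That gene was CSLC12, a cellulose synthase-like gene of the family that makes the xyloglucan backbone. It was at 4.58 ± 0.28 in ibr1ibr3ibr10 on IBA, 4.73 ± 0.02 in ibr1ibr3ibr10 on DMSO, 6.15 ± 0.19 in Col-0 on IBA and 4.80 ± 0.09 in Col-0 on DMSO (SD, n = 3 each), with a difference of responses of -1.50 (SE 0.18, limma adjusted p = 0.000127). Of 130 names listed for pectin and wall acidification 4 matched, for 3 genes of which 2 were dim, and the difference of responses was lower in 1 of the 3, against 3.54% of all, the pectin methylesterase gene ATPMEPCRB (-1.41, SE 0.16, adjusted p = 0.000103). With spike scaling both differences still passed, at -0.96 for CSLC12 and -0.87 for ATPMEPCRB. ATPMEPCRB was above the dim level only in Col-0 on IBA (4.09). It averaged 3.04 and 3.21 in the mutant on IBA and on DMSO, and 2.84 in Col-0 on DMSO.

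Of 6 listed markers of pericycle and lateral root founder cells, LBD16 and LBD29 were measured. LBD29 was at 2.43 ± 0.25 in ibr1ibr3ibr10 on IBA, 2.98 ± 0.32 in ibr1ibr3ibr10 on DMSO, 4.52 ± 0.25 in Col-0 on IBA and 3.20 ± 0.05 in Col-0 on DMSO. It averaged above the dim level only in Col-0 on IBA. LBD16 is also among the 5 genes most like EXPA4, and the part of lateral root founder cells in the EXPA4 result was not tested.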
